A study of Mus musculus with 36 samples.

Results

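The genes described here carry adrenergic and muscarinic signals in the heart, and each was found by its symbol: Adrb1, Adra1a, Adra1b, Chrm2, Adcy5, Adcy6, Grk5, Pde3a and Pde4d. They are 9 of the 55291 gene symbols measured, and all 9 were among the 19231 genes that passed a filter on low counts. Poly(A) RNA of CUG960 mice was sequenced from 2 tissues, left ventricle and atria, with 3 libraries for each of 12 groups of chamber and cohort, 36 in all. Every mouse carried TREDT960I on both alleles, a tetracycline-responsive transgene with interrupted CTG repeats within the human DMPK gene, and 1 copy of MHCrtTA, in which the α-MHC promoter drives the doxycycline-dependent activator in cardiomyocytes. The +dox cohort received doxycycline (dox) from postnatal day 1 until tissue was taken at 21 weeks of age, the –dox cohort never received it, and the +/–dox cohort was taken off it at 9 weeks. Mice of the MBNL1, MBNL2 and MBNL1+MBNL2 groups were kept on dox throughout and were injected at 9 weeks with AAV9 carrying 3XFLAG-MBNL1, 3XMYC-MBNL2 or both, human cDNAs under the cardiac human TNNT2 promoter. The repeat RNA is thus made in cardiomyocytes, dox and repeat RNA cannot be told apart, and among these libraries there is no cohort that received a vector without an MBNL cDNA. The study listed both sexes in every cohort but MBNL1+MBNL2, whose mice were all male.

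Noradrenaline and adrenaline raise heart rate and force mainly through β1-adrenoceptors (Adrb1), which activate adenylyl cyclases (in heart muscle chiefly Adcy5 and Adcy6) through the stimulatory G protein, so that cyclic AMP rises and protein kinase A is activated. The alpha1-adrenoceptors (Adra1a, Adra1b) act instead through Gq and phospholipase C. Acetylcholine from the vagus nerve acts through the M2 muscarinic receptor (Chrm2), whose inhibitory G protein restrains the cyclases and opens the muscarinic potassium channel, an effect best known in the atria and sinoatrial node. Grk5 is a G protein-coupled receptor kinase that phosphorylates active receptors and so desensitizes them, and the phosphodiesterases Pde3a and Pde4d break cyclic AMP down.

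Libraries held 55.0 to 97.1 M expected counts each (median 72.1 M), so the sparsest member, Adra1a in the atria, still had 56 to 170 reads per library, and the deepest, Chrm2 in the atria, 28138 to 42076. Ventricle and atria stood apart by their own markers: 5 atrial cardiomyocyte markers (Myl7, Sln, Nppa, Bmp10, Myl4) summed to 40300 to 61800 TPM (a level per transcript length) in the atria and 92.2 to 1010 in the ventricle, and 4 ventricular markers (Myl2, Myl3, Irx4, Myh7) to 20000 to 28100 in the ventricle and 288 to 1100 in the atria. The first ventricular MBNL1 library listed 16885 genes above 0, where the others listed 20578 to 24041. With that library out of the fit every member's call stayed as it was. Reads from the human cDNAs have no symbol of their own in these files: mouse Mbnl1 in the ventricular MBNL1 cohort was 0.19 higher than in +dox on the log2 scale (adjusted p = 0.177, edgeR), and mouse Mbnl2 in the ventricular MBNL2 cohort 0.03 higher (adjusted p = 0.898), so neither symbol checks the vector labels.

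Promoter sequence is given for 3 members: Grk5 and Chrm2, whose levels separated cohorts or chambers below, and Adrb1, whose level did so in no comparison by edgeR. Each run covers the 250 bases before and 50 bases after a RefSeq transcription start on GRCm38.p6, 5′ to 3′ on the gene's strand. Entries were found for 6 of the 9 members, with 7 starts. Capitals mark the core letters of a cyclic AMP response element half-site (TGACG) or a GC box (GGGCGG), each searched on both strands and not overlapping each other. An E-box (CANNTG), also searched, is not marked.
Grk5, chr19:60889499-60889798, + strand: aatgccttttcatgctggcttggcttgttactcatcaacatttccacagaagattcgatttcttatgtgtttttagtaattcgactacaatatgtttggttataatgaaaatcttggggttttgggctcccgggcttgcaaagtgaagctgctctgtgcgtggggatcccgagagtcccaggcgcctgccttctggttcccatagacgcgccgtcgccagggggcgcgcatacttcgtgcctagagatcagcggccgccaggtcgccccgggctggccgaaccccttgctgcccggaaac
Chrm2, chr6:36387834-36388133, + strand: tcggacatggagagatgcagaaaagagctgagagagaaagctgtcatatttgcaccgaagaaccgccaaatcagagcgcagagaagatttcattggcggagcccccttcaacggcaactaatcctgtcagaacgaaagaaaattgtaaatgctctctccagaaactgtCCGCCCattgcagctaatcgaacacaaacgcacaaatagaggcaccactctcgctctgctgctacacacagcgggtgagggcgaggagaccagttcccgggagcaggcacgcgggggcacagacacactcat
Adrb1, chr19:56721867-56722166, + strand: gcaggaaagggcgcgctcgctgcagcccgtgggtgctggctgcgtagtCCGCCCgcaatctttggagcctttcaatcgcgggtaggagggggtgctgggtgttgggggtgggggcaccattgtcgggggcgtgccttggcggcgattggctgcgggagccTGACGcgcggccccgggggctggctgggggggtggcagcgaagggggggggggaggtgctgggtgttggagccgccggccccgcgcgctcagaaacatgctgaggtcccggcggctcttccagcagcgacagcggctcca
The Adrb1 window held 1 half-site, at position -90 from the start, and 1 GC box, the Chrm2 window held 1 GC box, and the Grk5 window neither. No E-box was in any of the 3. Of all 32851 promoter windows of 300 bases, 20.8% held the half-site letters, 35.7% the GC box letters and 72.3% an E-box. A match describes letters only.

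By TPM in the –dox ventricle, Adcy6 was the highest member at 59.4 ± 15.6 (SD, n = 3 here and in each group that follows), then Chrm2 at 36 ± 2.49, Adcy5 at 21.2 ± 2.28 and Adra1b at 13.1 ± 1.71. Pde4d (11.3 ± 0.675) and Pde3a (11.1 ± 0.595) followed, then Grk5 (7.77 ± 1.07), Adra1a (7.70 ± 0.737) and Adrb1 (4.70 ± 1.47). The libraries of neighbours in this order did not overlap except for Adra1b with Pde4d, Pde4d with Pde3a, and Grk5 with Adra1a. In the –dox atria the order was led by the muscarinic receptor: Chrm2 stood at 145 ± 0.713 TPM, Adcy6 at 112 ± 16.5, Adcy5 at 42.0 ± 1.04, Pde4d at 24.2 ± 1.84 and Adra1b at 21.0 ± 2.64. Grk5 (17.0 ± 1.27), Pde3a (16.1 ± 0.452), Adrb1 (7.76 ± 1.55) and Adra1a (0.78 ± 0.104) came last, and in that chamber the libraries of Pde4d and Adra1b, and of Grk5 and Pde3a, overlapped. Adra1a was the one member below 1 TPM in a chamber, and its 18 atrial libraries ranged from 0.39 to 0.91 TPM. In the +dox ventricle Adra1a was last, at 3.52 ± 0.298 TPM, and Adra1b, at 10.7 ± 0.75, stood below Pde3a (13.5 ± 1.85), Pde4d (12.9 ± 1.36) and Grk5 (11.6 ± 2.67), with neighbours among these 4 overlapping. In the +dox atria Grk5, at 33.8 ± 2.55 TPM, stood above Adra1b (23.6 ± 1.49) and Pde4d (22.7 ± 2.69), both of which it was below in –dox. These are levels in whole tissue, in which fewer cells of a type and less RNA per cell cannot be told apart.

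**Figure D1:**
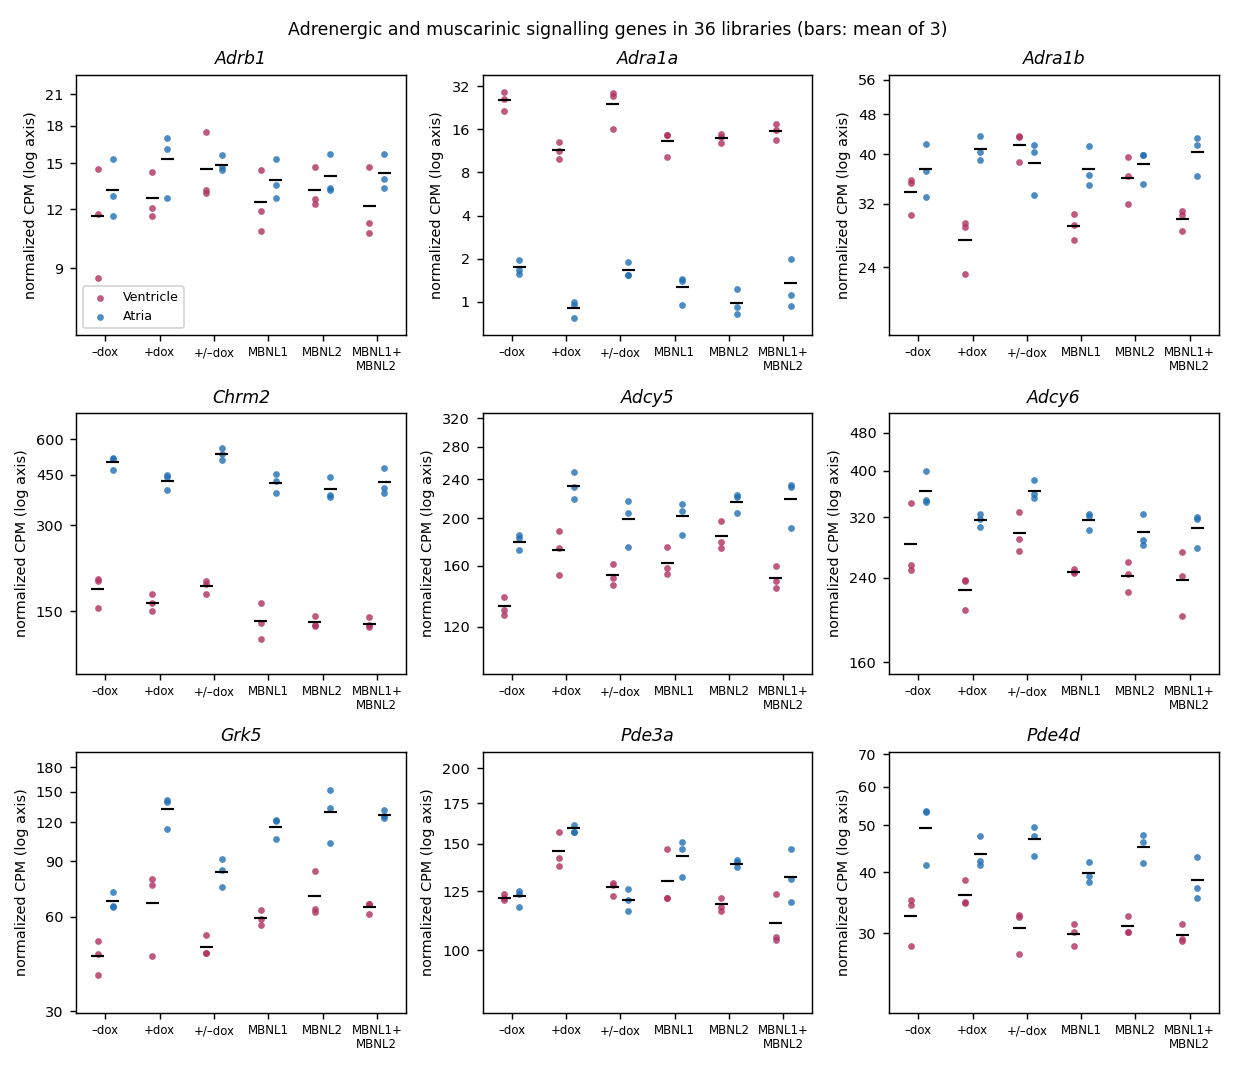
Normalized CPM (log axis) of each member in the 3 libraries of every cohort, ventricle and atria side by side, with a bar at the mean. Adra1a sits at 9.95 to 29.2 CPM in the ventricle and at 0.778 to 2.00 CPM in the atria, and the +dox libraries of Grk5 in the atria, at 114 to 141 CPM, lie above the –dox libraries, at 64.4 to 72.2 CPM.

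The first question of the design is what the repeat RNA does, asked by setting –dox and +/–dox against +dox. Levels below are counts per library size after TMM scaling (CPM), a scale on which one gene can be compared between libraries but not with another gene, tests are edgeR quasi-likelihood F tests over all 19231 genes, and a gene is called changed when its Benjamini-Hochberg adjusted p was below 0.05 and its fold change at least 1.5. In the ventricle 1 of 9 members was called between –dox and +dox, where 7.6% of all genes were, and 2 of 9 between +/–dox and +dox, where 6.6% were. In the atria 2 of 9 were called in each, against 5.23% and 3.99% of all genes. The calls fell on 3 genes: both alpha1-adrenoceptors and Grk5.

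Adra1a, the alpha1A-adrenoceptor (chr14:66635251-66771168, + strand), was lower in every +dox library than in any –dox or +/–dox library of the same chamber. In the ventricle it stood at 11.3, 13 and 9.95 CPM in +dox, at 29.2, 25.9 and 21.6 in –dox, and at 28.7, 27.4 and 16.0 in +/–dox. The third +/–dox library lay closer to +dox than the other two did, and without overlap. It rose 2.24-fold in –dox (log2 fold change 1.16 ± 0.209 SE, adjusted p = 0.000164) and 2.11-fold in +/–dox (1.07 ± 0.209, adjusted p = 0.000437). Libraries fall into a pair of sets by their library number, replicates 1 and 2 of every cohort but MBNL1+MBNL2 in the first and the rest in the second, and within them the –dox difference was 1.18 and 1.11 and the +/–dox difference 1.21 and 0.69. Xist, the RNA of the inactive X chromosome of females, was at 13.6 to 41.2 TPM in the 10 second-set libraries of the other 5 cohorts and at 0.15 or less in the rest, so that in those cohorts library set and sex cannot be told apart. MBNL1+MBNL2 libraries are in the second set with low Xist, so a value within that set that involves this cohort also sets males against females.

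In the atria, where the gene was far lower, Adra1a stood at 0.947, 0.999 and 0.778 CPM in +dox, at 1.96, 1.57 and 1.68 in –dox, and at 1.90, 1.54 and 1.54 in +/–dox. It rose 1.90-fold in –dox (0.93 ± 0.246, adjusted p = 0.00894) and 1.81-fold in +/–dox (0.86 ± 0.249, adjusted p = 0.0208). The +/–dox call in the atria was lost without +dox replicate 1 (0.88), +dox replicate 3 (0.76) or +/–dox replicate 1 (0.75), each time in the same direction. Within the library sets the differences were 0.83 and 1.09 for –dox, and 0.80 and 0.96 for +/–dox. A test of whether the chambers differed in this response did not pass for –dox (-0.23 ± 0.323, adjusted p = 0.884) or +/–dox (-0.22 ± 0.326, adjusted p = 0.855).

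Adra1b, the alpha1B-adrenoceptor (chr11:43774606-43901210, - strand), differed by cohort in the ventricle. Its ventricular levels were 28.8, 29.3 and 23.3 CPM in +dox, 35.1, 30.4 and 35.6 in –dox, and 43.2, 38.7 and 43.5 in +/–dox. The +/–dox libraries were above all others of those cohorts and the –dox libraries lay between. It rose 1.54-fold in +/–dox (0.62 ± 0.103, adjusted p = 5.14e-05), while the –dox difference, 0.31 ± 0.103, had an adjusted p of 0.0284 and missed the fold cutoff. The +/–dox value is close to that cutoff, and without ventricular +dox replicate 3, the lowest library, it was 0.53 and no longer called. Within the library sets it was 0.49 and 0.90.

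Atrial Adra1b did not separate the cohorts, at 40.4, 43.4 and 39.0 CPM in +dox, 41.9, 33.0 and 37.1 in –dox, and 40.5, 41.8 and 33.2 in +/–dox. The log2 differences were -0.13 ± 0.102 and -0.09 ± 0.102. The difference between the chambers in the +/–dox response was itself called, at -0.71 ± 0.144 (atria minus ventricle, adjusted p = 0.0134). It was 1 of 9 members, where 0.489% of all genes were called for that difference. Without atrial +dox replicate 2 (-0.67) or atrial +/–dox replicate 3 (-0.62) the call was lost. For –dox the same difference was -0.44 ± 0.144 with an adjusted p of 0.152 by edgeR. There 0 of 9 members were called by edgeR or by DESeq2, where edgeR called 0.764% of all genes. In edgeR 2 members, and 2120 of all 19231 genes, had an unadjusted p below 0.05.

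Adrb1, the β1-adrenoceptor (chr19:56722199-56733113, + strand), passed the test between no groups. In the ventricle it stood at 11.6, 12.1 and 14.4 CPM in +dox and at 11.7, 8.60 and 14.6 in –dox, and in the atria at 12.7, 16.1 and 17.0 and at 12.8, 11.6 and 15.3. The libraries overlapped in both chambers. The log2 differences, -0.13 (95% interval -0.44 to 0.18) and -0.21 (-0.51 to 0.10), leave out a change of 1.5-fold in either direction. Over all 29 comparisons, no adjusted p of Adrb1 was below 0.05 by edgeR. By TPM it was called between chambers, as given below.

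Chrm2, the M2 muscarinic receptor (chr6:36388084-36528414, + strand), was not called by cohort. Its ventricular levels were 173, 151 and 160 CPM in +dox, 192, 195 and 154 in –dox, and 192, 187 and 172 in +/–dox, which overlapped. In the atria the +dox libraries, at 441, 449 and 397 CPM, were below the –dox libraries, at 514, 512 and 468, and below the +/–dox libraries, at 532, 559 and 506. The atrial log2 difference was 0.21 ± 0.0943 in –dox (adjusted p = 0.124) and 0.31 ± 0.0943 in +/–dox (adjusted p = 0.0267), a 1.24-fold difference and so under the cutoff.

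Of the cyclases, Adcy5 (chr16:35154877-35305738, + strand) was lower in –dox than in +dox by nearly the same amount in both chambers. It stood at 174, 188 and 153 CPM in ventricular +dox and at 130, 127 and 138 in –dox, and at 248, 232 and 219 in atrial +dox and at 182, 185 and 172 in –dox. The groups did not overlap in either chamber. The differences of -0.38 ± 0.0853 (adjusted p = 0.00149) and -0.38 ± 0.0851 (adjusted p = 0.00209) are 1.3-fold each, under the cutoff, and within the library sets they were -0.49 and -0.15 in the ventricle and -0.39 and -0.35 in the atria. In +/–dox they were -0.17 ± 0.0851 (adjusted p = 0.171) and -0.23 ± 0.0851 (adjusted p = 0.0751).

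Adcy6 (chr15:98589973-98610076, - strand), the more abundant cyclase, lay the other way in the ventricle. It was at 236, 237 and 206 CPM in +dox, at 249, 255 and 343 in –dox, and at 273, 288 and 329 in +/–dox, all above +dox. The third –dox library stood apart from the other two. The differences were 0.32 ± 0.103 (adjusted p = 0.0243) and 0.40 ± 0.103 (adjusted p = 0.00567), again under the cutoff. Within the library sets the –dox difference was 0.09 and 0.74, the latter from the third library of each. The atrial values were 0.20 in each, with adjusted p-values of 0.187 and 0.217.

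Grk5, the receptor kinase (chr19:60889749-61095968, + strand), was the one member called lower. In the atria it stood at 139, 141 and 114 CPM in +dox, at 64.4, 72.2 and 65.0 in –dox, and at 84.7, 91.6 and 74.4 in +/–dox, with no overlap between the cohorts. It was 1.96-fold lower in –dox (-0.97 ± 0.152, adjusted p = 4.19e-05) and 1.58-fold lower in +/–dox (-0.66 ± 0.151, adjusted p = 0.0037). Within the library sets the differences were -1.04 and -0.82 for –dox, and -0.67 and -0.62 for +/–dox. Without atrial +/–dox replicate 3 the second was -0.58 and just under the fold cutoff.

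The call of ventricular Grk5 depended on single libraries. The +dox libraries were at 75.6, 78.9 and 45.0 CPM, so that the third lay among the –dox libraries (39.2, 50.2 and 45.6) and under the +/–dox libraries (46.1, 52.6 and 45.9). The differences were -0.56 ± 0.151 in –dox (adjusted p = 0.00787) and -0.47 ± 0.151 in +/–dox (adjusted p = 0.0263), neither called. Without +dox replicate 3 both were called, at -0.78 (adjusted p = 6.49e-05) and -0.68 (adjusted p = 0.000408), and without –dox replicate 2 the first was too, at -0.65 (adjusted p = 0.00826). Within the first library set the –dox difference was -0.80, and within the second, with 1 library against 1, 0.02. The test of a difference between the chambers' –dox responses did not pass (-0.41 ± 0.213, adjusted p = 0.501).

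The phosphodiesterases moved by less than the fold cutoff. Pde3a (chr6:141249269-141507448, + strand) was at 142, 138 and 157 CPM in ventricular +dox and at 124, 122 and 121 in –dox, and at 157, 161 and 157 in atrial +dox and at 124, 125 and 118 in –dox. The cohorts did not overlap. The differences were -0.25 ± 0.0745 in the ventricle (adjusted p = 0.0153) and -0.37 ± 0.0745 in the atria (adjusted p = 0.000677), and in +/–dox they were -0.20 ± 0.0745 in the ventricle, which did not pass (adjusted p = 0.0509), and -0.39 ± 0.0746 in the atria (adjusted p = 0.000468). Pde4d (chr13:108449948-109953461, + strand) did not pass the test against +dox in –dox or +/–dox of either chamber, with adjusted p-values from 0.088 to 0.561.

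**Figure D2:**
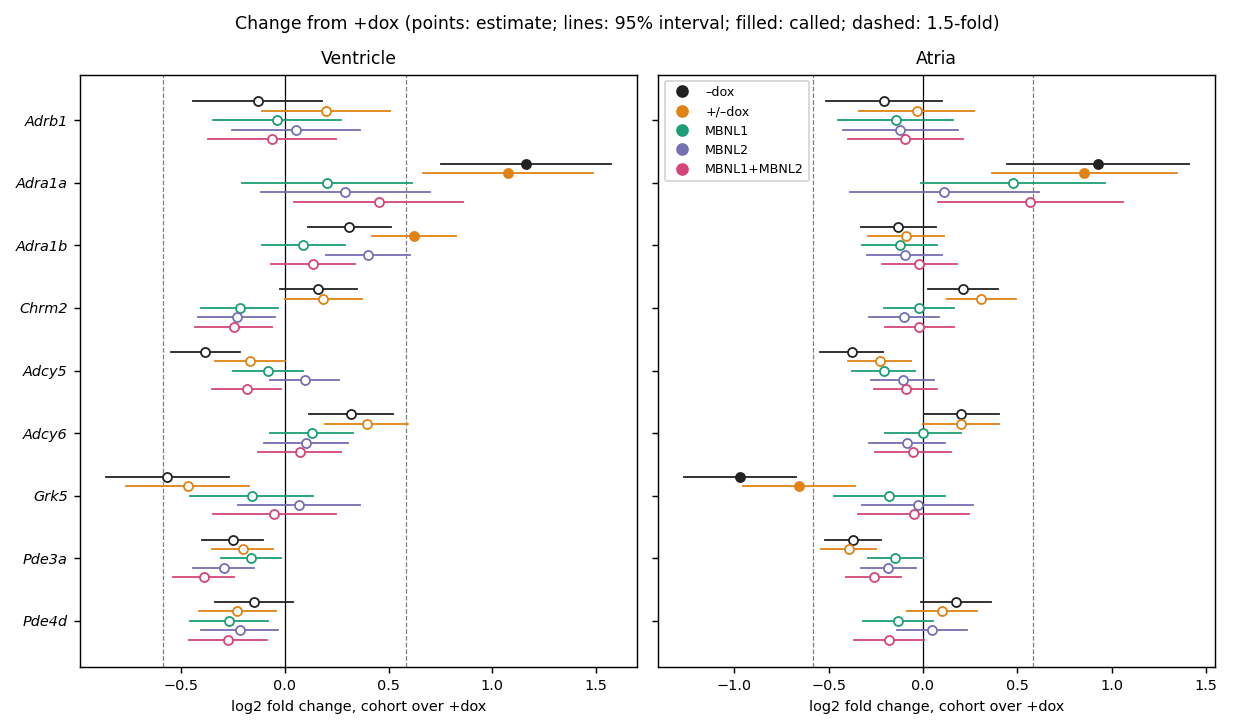
Log2 fold change of each member in each cohort over +dox, with lines of the 95% interval, filled points where called and dashed lines at 1.5-fold, ventricle and atria in separate panels. Filled points appear for Adra1a in –dox and +/–dox in both chambers, for Adra1b in ventricular +/–dox and for Grk5 in atrial –dox and +/–dox, and no point of an MBNL cohort is filled.

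Marker lists moved with some of these cohorts. The 6 markers of all cardiomyocytes summed to 16200 to 16600 TPM in ventricular +dox, 17200 to 20100 in –dox and 20900 to 22100 in +/–dox, and to 21200 to 22900, 23300 to 24900 and 24800 to 26400 in the atria. None of the 6 was called in –dox, and Tnnt2 was called higher in ventricular +/–dox. In the atria the 5 sinoatrial node markers summed to 28.9 to 31.1 TPM in +dox, 13.3 to 20.3 in –dox and 15.2 to 19.1 in +/–dox, with Tbx18 called higher and Vsnl1 lower in –dox, and Hcn4 lower in +/–dox. In the ventricle the 4 red blood cell markers summed to 378 to 1190 TPM in +dox, 1840 to 4120 in –dox and 2350 to 2920 in +/–dox, with none called. The 4 endothelial markers summed to 134 to 144 TPM in ventricular +dox, 168 to 216 in –dox and 176 to 194 in +/–dox, with Tie1 called higher in –dox, and to 166 to 180, 206 to 248 and 183 to 218 in the atria. The 4 Schwann cell markers summed to 1.71 to 3.24 TPM in ventricular +dox and 3.3 to 4.31 in +/–dox, with Sox10 called higher. Of the fat cell markers Cidea was called higher and of the T cell markers Cd3g lower in ventricular –dox, where Tbx18 was also called higher, and no marker of fibroblasts, smooth muscle cells and pericytes, macrophages or B cells was called in these 4 comparisons. In the atria the 5 atrial cardiomyocyte markers summed to 40300 to 43300 TPM in +dox, 54400 to 57800 in –dox and 55800 to 60700 in +/–dox, again with none called. The 4 ventricular cardiomyocyte markers summed there to 327 to 391 TPM in +dox, 295 to 1100 in –dox and 409 to 682 in +/–dox. The median log2 fold changes of these 4 over +dox were 1.26 in –dox and 1.61 in +/–dox, with none called. Of the neuron markers, Dbh was called higher in ventricular –dox and +/–dox and Prph in atrial –dox, and the medians of Th, Chat and Snap25 were under 0.1 TPM in both chambers. Whether these shifts have a part in the results above was not tested.

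The second question is how far added MBNL protein moves the members of mice that stay on dox. Against +dox, 0 of 9 members were called in any of the 3 MBNL cohorts in either chamber. In the ventricle edgeR called 2.66% of all genes in MBNL1, 1.52% in MBNL2 and 2.65% in MBNL1+MBNL2. There 3, 4 and 5 members, and 4733, 4294 and 4254 of all 19231 genes, had an unadjusted p below 0.05. In the atria edgeR called 0.13%, 0.0052% and 0.26% of all genes. An unadjusted p below 0.05 was found there for 1, 1 and 2 members, and for 1521, 831 and 1924 of all genes. DESeq2 called 0 members in each of the 6.

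Pde3a and Adra1b reached an adjusted p below 0.05 in these comparisons without reaching 1.5-fold. Pde3a in the ventricle was at 122, 118 and 116 CPM in MBNL2 and at 124, 105 and 104 in MBNL1+MBNL2, all under the +dox libraries (138 to 157). The differences were -0.29 ± 0.0745 (adjusted p = 0.0151) and -0.39 ± 0.0746 (adjusted p = 0.00103). Ventricular Adra1b in MBNL2 was at 31.9, 36.2 and 39.5 CPM and 0.40 ± 0.102 higher than in +dox (adjusted p = 0.0151).

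Adra1a and Grk5, which separated –dox from +dox, were called against +dox in no MBNL cohort. Ventricular Adra1a was at 14.6, 14.6 and 10.3 CPM in MBNL1, at 14.2, 14.9 and 12.9 in MBNL2, and at 17.5, 15.9 and 13.4 in MBNL1+MBNL2. The MBNL1 and MBNL2 libraries overlapped those of +dox and the MBNL1+MBNL2 libraries lay above them, and the log2 differences were 0.20, 0.29 and 0.45, each with an SE of 0.208 and adjusted p-values of 0.581, 0.444 and 0.195. With the library set as a covariate the MBNL1+MBNL2 difference was 0.66 (adjusted p = 0.0229) and called, and within the second set it was 0.64. In the other cohorts library set cannot be told apart from sex, and the MBNL1+MBNL2 mice were all male, so both values also involve sex.

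Atrial Adra1a was at 1.45, 1.41 and 0.95 CPM in MBNL1, at 0.822, 0.916 and 1.23 in MBNL2, and at 2.00, 0.931 and 1.12 in MBNL1+MBNL2, each cohort overlapping +dox. The differences were 0.48 ± 0.249, 0.11 ± 0.256 and 0.57 ± 0.249, with adjusted p-values of 0.671, 1.0 and 0.427. Atrial Grk5 was at 121, 122 and 106 CPM in MBNL1, at 152, 133 and 103 in MBNL2, and at 124, 126 and 131 in MBNL1+MBNL2. The differences were -0.18, -0.03 and -0.05, each with an SE of 0.150.

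Against +/–dox, the cohort from which the repeat RNA was withdrawn at the age the vectors were given, several of these differences were called. Since +/–dox and +dox are each shared by several comparisons, the values below are not independent of one another. Ventricular Adra1a was 1.83-fold lower in MBNL1 (-0.87 ± 0.208, adjusted p = 0.0219) and 1.72-fold lower in MBNL2 (-0.78 ± 0.208, adjusted p = 0.0228), and each was 1 of 9 members, where 0.868% and 1.57% of all genes were called. In MBNL1+MBNL2 it was -0.62 ± 0.208 with an adjusted p of 0.127. There 0 of 9 members were called by edgeR or by DESeq2, where edgeR called 0.53% of all genes. In edgeR 6 members, and 2821 of all 19231 genes, had an unadjusted p below 0.05. Fitted with the replicate number as a block, the Adra1a difference in MBNL1+MBNL2 was -0.60 (adjusted p = 0.0431) and called.

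The ventricular Adra1a calls against +/–dox were not firm. The MBNL1 call was lost without MBNL1 replicate 3 (-0.72), +/–dox replicate 1 (-0.72) or +/–dox replicate 2 (-0.77). The MBNL2 call was lost without MBNL2 replicate 1 (-0.79), 2 (-0.83) or 3 (-0.73) or +/–dox replicate 1 (-0.63) or 2 (-0.68). It was also lost with limma on log2(TPM + 1) (-0.515) and on log2(TPM + 0.1) (-0.586). The direction was the same in each. Without +/–dox replicate 3, the low library, MBNL1+MBNL2 was called at -0.85 (adjusted p = 0.0368). Within the first library set the differences were -0.94 for MBNL1 and -0.95 for MBNL2, and within the second -0.64 and -0.32. All MBNL1+MBNL2 libraries are in the second set, where 1 library of each other cohort lies, and there the Adra1a difference from +/–dox was -0.05.

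Atrial Grk5 was 1.55-fold higher in MBNL2 than in +/–dox (0.63 ± 0.151, adjusted p = 0.00624) and 1.52-fold higher in MBNL1+MBNL2 (0.61 ± 0.151, adjusted p = 0.0128), each 1 of 9 members where 3.24% and 1.71% of all genes were called. In MBNL1 it was 0.48 ± 0.151 with an adjusted p of 0.0658. For MBNL1 0 of 9 members were called by edgeR or by DESeq2, where edgeR called 1.21% of all genes. In edgeR 4 members, and 3267 of all 19231 genes, had an unadjusted p below 0.05. Both calls lie close to the fold cutoff: without +/–dox replicate 3 the values were 0.55 and 0.53, without MBNL2 replicate 1 the first was 0.50, and without MBNL1+MBNL2 replicate 3 the second was 0.59 and not called. Within the library sets the MBNL2 difference was 0.69 and 0.47, and the MBNL1+MBNL2 difference in the second set 0.77. Atrial Adra1a in MBNL2 was -0.74 ± 0.248 from +/–dox with an adjusted p of 0.0502, and with the replicate block -0.73 and called (adjusted p = 0.0122), which made 2 of 9 members.

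Chrm2 was lower than in +/–dox in all 3 MBNL cohorts and both chambers, each time by less than 1.5-fold. In the ventricle its libraries were at 160, 137 and 120 CPM in MBNL1, at 135, 145 and 133 in MBNL2, and at 132, 134 and 143 in MBNL1+MBNL2, all under the +/–dox libraries (172 to 192). The differences were -0.40, -0.42 and -0.43 there (adjusted p = 0.0182, 0.00705 and 0.0124 by edgeR) and -0.33, -0.41 and -0.33 in the atria (adjusted p = 0.0369, 0.00413 and 0.0294). Against +dox, the ventricular values of Chrm2 were -0.217, -0.23 and -0.245 and did not pass (adjusted p = 0.145, 0.135 and 0.109 by edgeR). The atrial values against +dox were -0.021, -0.1 and -0.019. Ventricular Adra1b was likewise lower than in +/–dox in MBNL1 (-0.53 ± 0.103, adjusted p = 0.00368) and in MBNL1+MBNL2 (-0.49 ± 0.103, adjusted p = 0.0102), and ventricular Grk5 higher in MBNL2 (0.54 ± 0.151, adjusted p = 0.0345), under the cutoff. Ventricular Grk5 in MBNL2 was called without MBNL2 replicate 2 (0.60) or 3 (0.61), and ventricular Adra1b in MBNL1 without +/–dox replicate 2 (-0.59).

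**Figure D3:**
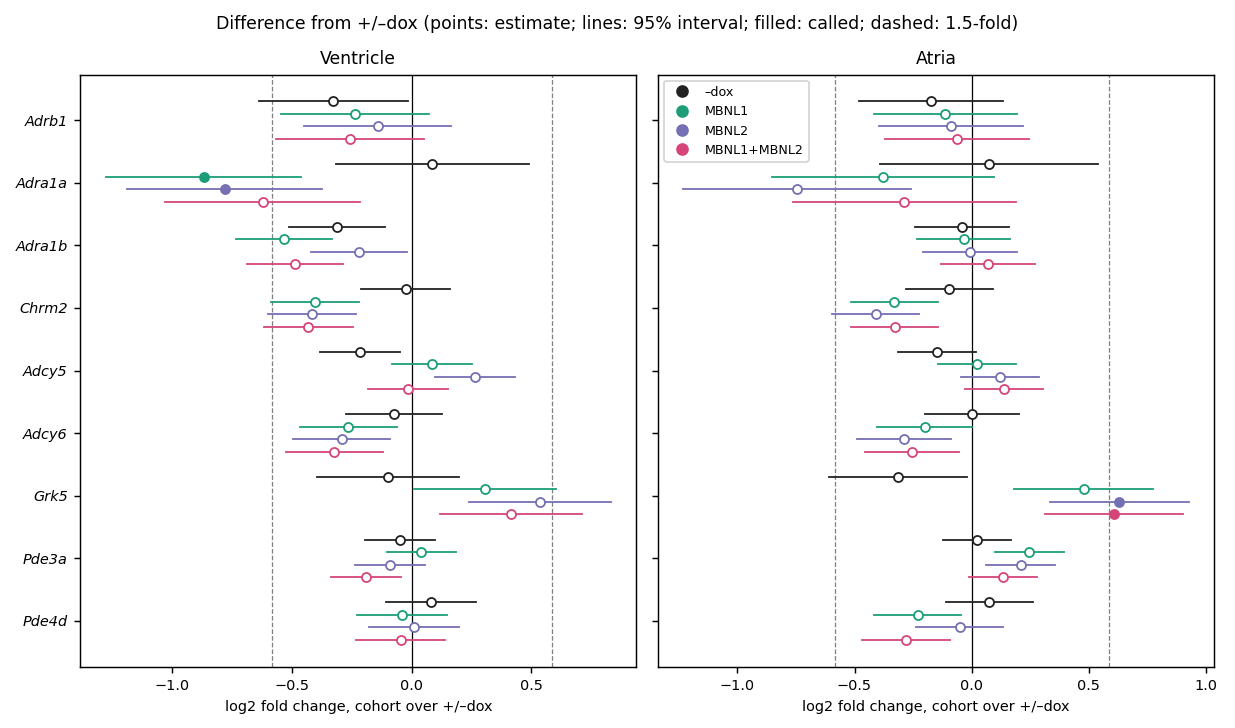
Log2 fold change of each member over +/–dox in –dox and the 3 MBNL cohorts, with lines of the 95% interval, filled points where called and dashed lines at 1.5-fold. Ventricular Adra1a in MBNL1 and MBNL2 and atrial Grk5 in MBNL2 and MBNL1+MBNL2 are filled, and the 6 Chrm2 points of the MBNL cohorts lie between -0.33 and -0.43.

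The remaining pairs of cohorts showed no called member. Between –dox and +/–dox, edgeR called 0 of 9 members in the ventricle (3 at an unadjusted p below 0.05, 0 by DESeq2, 0.0312% of all genes called) and 0 of 9 in the atria (1, 0 and 0.0104%). The member with the lowest ventricular p was Adra1b, at -0.31 ± 0.102 (adjusted p = 0.386). Between MBNL1+MBNL2 and MBNL1 edgeR called 0 of 9 members in the ventricle (1 at an unadjusted p below 0.05, 0 by DESeq2, 0.0% of all genes) and 0 of 9 in the atria (0, 0 and 0.0%). Between MBNL1+MBNL2 and MBNL2 it called 0 of 9 in the ventricle (2, 0 and 0.026%) and 0 of 9 in the atria (1, 0 and 0.0104%). The chambers' responses to MBNL1, MBNL2 and MBNL1+MBNL2 differed for 0 of 9 members in each (0, 1 and 0 at an unadjusted p below 0.05, 0 by DESeq2), with 0.0312%, 0.0364% and 0.0728% of all genes called by edgeR. An unadjusted p below 0.05 was found for 1586 and 907 of all 19231 genes between –dox and +/–dox, ventricle first. It was found for 1692 and 454 between MBNL1+MBNL2 and MBNL1, and for 1601 and 1031 between MBNL1+MBNL2 and MBNL2. For the chambers' responses the numbers were 1568, 2114 and 1246.

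Between chambers, 3 of 9 members were called in –dox and 4 of 9 in +dox, where 24.9% and 25.0% of all genes were, so the count itself is close to that of genes at large for –dox. Chrm2 and Adra1a were called in both cohorts, in opposite directions. Chrm2 was at 192, 195 and 154 CPM in the –dox ventricle and at 514, 512 and 468 in the –dox atria, 2.76-fold higher (1.46 ± 0.0963, adjusted p = 7.32e-14), and 2.66-fold higher in +dox (1.41 ± 0.0961, adjusted p = 1.68e-13). Adra1a was 14.7-fold lower in the atria in –dox (-3.88 ± 0.238, adjusted p = 5.01e-14) and 12.5-fold lower in +dox (-3.64 ± 0.244, adjusted p = 3.26e-13). Neither gene's libraries overlapped between chambers, and within the library sets the differences were 1.41 and 1.60 (–dox) and 1.46 and 1.31 (+dox) for Chrm2, and -3.95 and -3.66, and -3.60 and -3.63, for Adra1a.

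Pde4d was called in –dox alone, at 53.5, 53.1 and 41.4 CPM in the atria against 34.2, 35.1 and 28.2 in the ventricle (0.60 ± 0.0953, adjusted p = 4.12e-06), and its +dox difference was 0.28 ± 0.0948 (adjusted p = 0.0164). The first value is at the fold cutoff and was not called with DESeq2 (0.58), with RLE size factors (0.58), or without –dox ventricle replicate 3 (0.51) or –dox atria replicate 1 (0.54) or 2 (0.55). Grk5 and Adra1b were called in +dox alone: Grk5 at 0.98 ± 0.152 (adjusted p = 3.71e-06) against 0.58 ± 0.152 in –dox (adjusted p = 0.00249), and Adra1b at 0.59 ± 0.102 (adjusted p = 1.5e-05) against 0.15 ± 0.102 (adjusted p = 0.257). Within the library sets the called differences were 0.62 and 0.56 for Pde4d, 0.86 and 1.34 for Grk5, and 0.53 and 0.74 for Adra1b. Whether a chamber difference differed between –dox and +dox is the same test as that of the chambers' –dox responses, which did not pass for Grk5 and Adra1b (above) or for Pde4d (0.32 ± 0.134, adjusted p = 0.33). The –dox difference of Grk5 was called in 4 of the fits that left out 1 of its 6 libraries, those without –dox ventricle replicate 2 (0.67) or 3 (0.59) and without –dox atria replicate 1 (0.61) or 3 (0.60), and the +dox difference of Adra1b was not called without +dox ventricle replicate 3 (0.50) or +dox atria replicate 2 (0.55).

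Adcy5 (0.45 and 0.44) and Adcy6 (0.37 and 0.48) were higher in the atria of –dox and +dox, with adjusted p-values from 6.13e-05 to 0.00399 and less than 1.5-fold. Adrb1 (0.19 and 0.27) and Pde3a (0.00 and 0.12) had adjusted p-values of 0.178 or more. The chamber calls depend on scaling. By TPM the median of all genes was itself 0.50 higher in the atria in –dox and 0.47 in +dox with a pseudocount of 0.1, and 0.32 and 0.30 with a pseudocount of 1, where the TMM-scaled medians were 0.03 and 0.00. With either pseudocount limma then called 8 and 9 members. The share of all genes called in those fits is not given here, so these counts cannot be set against genes at large. Relative to those medians, with the pseudocount of 0.1, Chrm2 was 1.51 higher in –dox and 1.48 in +dox, Adra1a stood at -3.65 and -3.28, and Pde3a 0.04 and 0.20 higher. Adrb1 was among the members called by limma, at 0.74 in –dox and 0.79 in +dox with that pseudocount. Relative to the medians it was 0.24 and 0.32 higher.

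**Figure D4:**
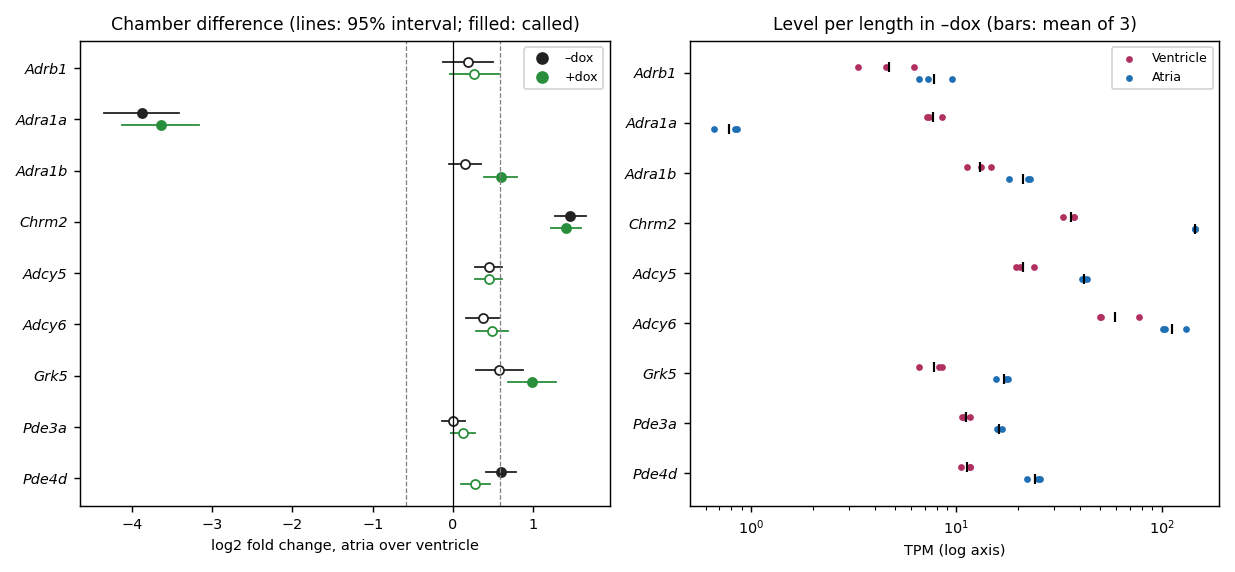
Left, log2 fold change of each member in the atria over the ventricle in –dox and +dox with lines of the 95% interval. Right, level per length (TPM) of each member in the 3 –dox libraries of each chamber. Adra1a is the one member lower in the atria, at -3.88 and -3.64, and Chrm2 has the highest atrial level, 145 TPM on average.

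Mean TPM kept the same chamber order in every cohort for all 9 members. On this scale the median of all genes was itself higher in the atria of –dox and +dox, as given above. The atrial over ventricular ratio of mean TPM ran from 3.75 (MBNL2) to 4.49 (MBNL1+MBNL2) for Chrm2, from 2.19 (–dox) to 2.93 (+dox) for Grk5 and from 1.29 (+/–dox) to 2.21 (+dox) for Adra1b. The ventricular over atrial ratio ran from 7.58 (MBNL1) to 10.9 (+/–dox) for Adra1a.

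How reads are shared could touch some of these values. Genes on the other strand overlap Chrm2, Adcy5, Adcy6, Grk5, Pde3a and Pde4d, and whether counting used strand is not given in the sources used here. Zfp950, which overlaps Grk5, varied between replicates of a group, for example 28.4, 3.87 and 5.57 TPM in the –dox atria and 3.28, 3.96 and 10.2 in the +dox atria. In the same libraries Grk5 was at 15.6, 17.5 and 17.9 TPM, and at 33.9, 36.3 and 31.2 TPM. The part of Zfp950 in the Grk5 values was not tested. Gm29331, which overlaps Adcy6, was at 0.87 to 17.5 TPM, and 9330158H04Rik, which overlaps Chrm2, at 0.12 to 5.45. The latter, like Chrm2, was higher in the atria (4.57 ± 0.446 against 1.35 ± 0.0777 TPM in –dox), and its part in the Chrm2 difference was not tested. The other overlapping genes stayed at or below 1.76 TPM.

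The count and TPM of a gene together give the mean length of the transcripts that its reads were assigned to, which can show a switch between long and short transcripts. It was tested for the 5 members whose log2 length had an SD of at least 0.005 over the 36 libraries (Adra1a, Adcy6, Grk5, Pde3a and Pde4d, with SDs of 0.0056 to 0.0881), and not for the other 4, with SDs of 0.0031 to 0.0048. By limma, 0 of the 5 were called in the ventricle or in the atria between –dox and +dox or between the chambers in –dox, where 2.21%, 1.72% and 1.59% of 8601 genes were. The lowest adjusted p was that of Adcy6 in the –dox ventricle, where the implied length differed by -1.69% (unadjusted p = 0.0101, adjusted p = 0.203).

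A wider list of 115 genes of the same pathways, of which 111 were tested, showed where the members sit among their partners. Between –dox and +dox, 11 rose and 6 fell in the ventricle and 10 rose and 5 fell in the atria, and between +/–dox and +dox 4 and 3, and 7 and 3. These are 15.3% and 13.5% of the list in –dox, and 6.31% and 9.01% in +/–dox, beside 7.6%, 5.23%, 6.6% and 3.99% of all genes. The medians of the list were 0.06, 0.07, 0.08 and 0.05 in that order, where those of all genes were 0.01, 0.03, 0.00 and 0.03. Among the other receptors 1 of 9 tested fell in all 4 comparisons, Adora1, the adenosine A1 receptor that like Chrm2 acts through the inhibitory G protein. Its differences were -0.93 ± 0.176 and -0.68 ± 0.175 in the ventricle, and -1.18 ± 0.176 and -0.79 ± 0.174 in the atria, –dox first. Adra2c, an alpha2-adrenoceptor, rose in atrial –dox (1.73 ± 0.556, adjusted p = 0.0304), at a very low level (0.209 ± 0.13 CPM against 0.0615 ± 0.0326) and with overlapping libraries.

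Among 7 other cyclases, Adcy1 fell in ventricular –dox (-1.91 ± 0.311), ventricular +/–dox (-1.75 ± 0.308) and atrial –dox (-0.84 ± 0.281, adjusted p = 0.0406). Its level was 1.24, 1.16 and 1.55 TPM in ventricular +dox and 0.20, 0.45 and 0.36 in –dox. It stood at 46.9, 50.8 and 48.7 TPM in atrial +dox and at 25.6, 28.8 and 25.1 in –dox, without overlap. None of 14 G protein subunits and none of 10 A-kinase anchoring proteins was called by edgeR in these 4 comparisons. Of 14 other phosphodiesterases, 4 rose and 1 fell in ventricular –dox and 3 rose in atrial –dox, with Pde4c, of the same cyclic AMP-specific family as Pde4d, rising in both chambers (0.99 ± 0.197 and 0.76 ± 0.207).

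Ppp1r1a, an inhibitor of protein phosphatase 1 that protein kinase A switches on, fell in all 4 comparisons, by 1.71 and 0.89 on the log2 scale in the ventricle and by 1.50 and 0.90 in the atria. It stood at 5.79, 4.43 and 3.21 TPM in ventricular +dox and at 1.26, 1.38 and 1.37 in –dox. Pln, the protein kinase A substrate that restrains the calcium pump of the sarcoplasmic reticulum, rose in the atria (0.93 ± 0.109 and 0.71 ± 0.108), where the ventricular values were 0.05 and 0.07. Popdc3, a cyclic AMP-binding membrane protein, fell in the atria (-1.13 ± 0.128 and -0.95 ± 0.127). Of the genes that make and break down the transmitters, Dbh, which converts dopamine to noradrenaline, rose in the ventricle (1.09 ± 0.376 and 1.3 ± 0.376, adjusted p = 0.038 and 0.012 by edgeR), where the –dox libraries (0.60, 1.10 and 1.51 TPM) overlapped those of +dox (0.75, 0.59 and 0.14), Ache, which breaks down acetylcholine, rose in ventricular –dox (0.97 ± 0.282), and Pnmt, which makes adrenaline, rose in the atria (1.21 ± 0.308 and 1.62 ± 0.310). Atrial Ache was at 4.76, 4.68 and 5.03 TPM in +dox, 8.33, 8.88 and 8.91 in –dox, and 8.29, 8.98 and 7.13 in +/–dox. Atrial Dbh in +/–dox (2.26, 2.65 and 2.63 TPM) lay above +dox (1.6, 1.5 and 1.18). Ventricular Pnmt in +/–dox (0.82, 0.94 and 0.75 TPM) lay above +dox (0.45, 0.67 and 0.21). For both, the –dox libraries overlapped those of +dox.

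Between chambers in –dox 26 of the 111 were higher in the atria and 20 lower, and in +dox 25 and 21, with list medians of 0.02 and 0.05. This is 41.4% of the list in each, beside 24.9% and 25.0% of all genes. Kcnj3 and Kcnj5, the subunits of the muscarinic potassium channel that Chrm2 opens, were both higher in the –dox atria, by 2.76 ± 0.162 and 2.07 ± 0.119. Between cohorts their atrial values lay in opposite directions in –dox, 0.46 ± 0.152 for Kcnj3 and -0.47 ± 0.115 for Kcnj5 (adjusted p = 0.0374 and 0.00403 by edgeR), both under the fold cutoff. These 2 genes were chosen after their values were seen.

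By a fixed measure, Pearson's r of log2 CPM over the 18 libraries of a chamber, the genes most like Adra1a were Coq5 (0.961) and Cmya5 (0.926) in the ventricle and Hp1bp3 (0.884) and Tnfrsf19 (0.878) in the atria, and those most like atrial Grk5 were Hyal1 (0.966) and Galnt10 (0.965). The 18 libraries share cohort differences, library set and depth, so these values describe likeness only.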

How the data were processed

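The authors made stranded TruSeq mRNA libraries from 250 ng of RNA, sequenced them as paired reads of 150 bases, aligned them with STAR 2.7.10b to mm10 and quantified GENCODE M25 genes with RSEM 1.3.1. They deposited RSEM expected counts (estimated counts per gene symbol, not normalized) and TPM per library. Whether strand was used in counting, and how genes sharing a symbol were joined, is not given in the sources used here.

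Expected counts were rounded. One edgeR 4.0.16 quasi-likelihood model (robust, TMM scaling, R 4.3.3) was fitted to 12 group means over all 36 libraries and the 19231 of 55291 genes kept by filterByExpr. Adjusted p-values are Benjamini-Hochberg values over those genes for each comparison, a call needs an adjusted p below 0.05 and 1.5-fold, SEs were derived from the F statistic, and 95% intervals are 1.96 SE. DESeq2 1.42.0, limma 3.58.1 on log2(TPM + 1) and log2(TPM + 0.1), other scaling and filters, a library set covariate, a replicate block and the removal of each library were alternatives. The fits were tested on simulated data. Depth was 55.0 to 97.1 M counts per library. The implied length of a gene's transcripts was tested with limma.

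Titles call the samples biological replicates and the study took both chambers from its mice, but GEO's labels do not tie replicate numbers to mice (the study lists the same mice for both chambers of a cohort, without those numbers), so p-values measure the spread between these samples. No 2 libraries of a group agreed within sampling noise (36 pairs, chi-square over degrees of freedom 9.61 to 129). Same-numbered libraries of different cohorts did not deviate together throughout (90 correlations of deviations from group means, -0.154 to 0.29, median 0.034, no pair of groups over 0.1 throughout), so the block is an alternative. The third replicates of the 5 cohorts other than MBNL1+MBNL2, which share library set and sex, did so in the atria (0.18 to 0.29, 10 of 10 over 0.1) and mostly in the ventricle (-0.013 to 0.187, 8 of 10). Between the chambers of a cohort these correlations were 0.041 to 0.257 (18, median 0.132), and over 0.1 throughout in 3 of 6 cohorts, –dox and +dox among them.

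The genes and lists were chosen with earlier results of these data known. All 9 members are named. Of the pathway list, the 3 genes with the largest rise and the 3 with the largest fall among those called in –dox against +dox are named for each chamber, and of the genes most like a called member the 2 with the highest correlation. Kcnj3 and Kcnj5 are outside this rule. Gene positions are from GENCODE M21 on GRCm38 (9 of 9 members matched), promoters from RefSeq on GRCm38.p6 (6 of 9 members matched). The summed level of the neuron marker list is not reported here.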

Additional observations from a re-analysis of the deposited data

Results flagged for a closer look

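Adra1b differed between chambers in its response to withdrawal of dox: atria minus ventricle, the log2 difference of +/–dox over +dox was -0.712 ± 0.144 (adjusted p = 0.0134, edgeR), from -0.09 in the atria and 0.62 in the ventricle. Among the named genes of the pathway list, 3 more such differences passed the test. For Pln, the inhibitor of the sarcoplasmic reticulum calcium pump, the difference was 0.876 ± 0.152 in –dox (adjusted p = 0.00183), from 0.93 in the atria and 0.05 in the ventricle, and 0.645 in +/–dox (adjusted p = 0.039), from 0.71 and 0.07. For Popdc3 it was -0.852 ± 0.178 in –dox (adjusted p = 0.00983), from -1.13 in the atria and -0.28 in the ventricle.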

How the results depend on the processing

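Of the 19 called results of members, 8 kept their call under every alternative tried, and none of 339 recomputed values changed sign, although 36 lost the call. Of 242 results not called, 75 had the other sign and 36 were called under at least 1 alternative. Of 564 counts of called members under alternatives, 512 were within 1.5 times the main count. An unchanged count can hide a change of member. Without ventricular +dox replicate 3, Grk5 (-0.683) took the place of Adra1b (0.525) in ventricular +/–dox against +dox. With limma on either TPM scale, Grk5 (0.641 and 0.693) took the place of Adra1a in ventricular MBNL2 against +/–dox. The other counts follow.

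Without a fold cutoff, 6 members passed in ventricular –dox, 4 in ventricular +/–dox, 2 in ventricular MBNL2, 1 in ventricular MBNL1+MBNL2, and 4 in atrial –dox and +/–dox, all against +dox. Against +/–dox it was 3, 3 and 2 in ventricular MBNL1, MBNL2 and MBNL1+MBNL2 and 1, 2 and 2 in the atria, and between chambers 6 in –dox and 7 in +dox. On log2(TPM + 1), 1 member each was called in ventricular +/–dox, atrial –dox and atrial +/–dox against +dox, and between chambers 8 and 9, as on log2(TPM + 0.1). Adra1b lost its call in the first of these (0.578), and Adra1a in the atrial –dox (0.331) and +/–dox (0.266) comparisons. The share of all genes called on the TPM scales is not given here. With no filter on low counts, 1 was called in atrial +/–dox against +dox, and 0 in ventricular MBNL1 and MBNL2 against +/–dox, as in a fit of the 6 libraries compared. The library set as covariate gave 1 in ventricular MBNL1+MBNL2 against +dox (Adra1a, 0.66) and 2 in atrial MBNL2 against +/–dox. DESeq2 and the fit without robust dispersion also gave 2 in atrial MBNL2. For MBNL1+MBNL2 the set covariate also involves sex, as given above.

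With the replicate number as a block, 1 member was called in ventricular MBNL1+MBNL2 and 2 in atrial MBNL2, each against +/–dox and in place of 0 and 1. The block matched same-numbered libraries of different cohorts within a chamber. For the comparisons of atria with ventricle it matched same-numbered libraries of the chambers of a cohort instead. No other count changed, among them the chamber counts of 3 and 4. Differences between the chambers' responses, such as that of Adra1b, were fitted with the first kind of block only, which does not match the chambers.

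With 1 library left out at a time, the counts ran from 1 to 2 for ventricular –dox and atrial +/–dox against +dox, from 0 to 1 for ventricular MBNL1, MBNL2 and MBNL1+MBNL2 and atrial MBNL1+MBNL2 against +/–dox, from 0 to 2 for atrial MBNL2 against +/–dox, from 0 to 1 for the chamber difference in +/–dox, and from 0 to 1 for implied length in ventricular –dox. Where an arm keeps 2 libraries its spread is taken from all groups. Atrial Adra1a, at 56 to 170 reads a library, is the member that depth limits most.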
